A study of Mus musculus with 24 samples.

Results

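The 7 mouse genes that write, copy and remove cytosine methylation were examined during activation of splenic CD4+ T cells. They are Dnmt1, Uhrf1, Dnmt3a, Dnmt3b, Tet1, Tet2 and Tet3, chosen by name from the 54446 gene identifiers of the count table. No measured value entered the choice, and all 7 passed the filter on low counts that left 15325 genes for testing.

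Methylation of cytosine at CG pairs is carried through cell division by DNMT1, which copies the mark onto the newly made strand at replication. UHRF1 binds the hemimethylated sites that replication leaves and brings DNMT1 to them. DNMT3A and DNMT3B place new methyl groups, whereas the dioxygenases TET1, TET2 and TET3 oxidise 5-methylcytosine, which leads to its removal. In T cells these enzymes are known for setting the methylation of cytokine genes and of the Foxp3 locus.

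The series holds RNA sequencing of splenic CD4+ T cells from 6 C57BL6 mice, 3 wild type (WT, mice 1, 3 and 4) and 3 lacking the cytosolic DNA sensor AIM2 (Aim2-/-, mice 1, 2 and 4). Each mouse gave 1 library of unstimulated cells (0 h) and 1 each after 3, 6 and 24 h of culture with anti-CD3 and anti-CD28 antibodies, which trigger the T cell receptor together with its costimulatory partner CD28. The 24 libraries thus form 8 groups of 3 mice, with total counts from 19715161 to 21627018. No agent or allele besides the AIM2 deficiency and the antibodies is named, and the age of the mice is not given. The general methods of the study, whose sequencing figures show other T cell samples than these, give negative magnetic selection, which leaves unlabelled T cells behind, and Aim2-/- mice on the same background bred in the same facility.

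The targeted gene did not separate the labels fully. At 0 h Aim2 lay at 15.7 to 20.1 CPM (counts scaled to a common library total, with TMM-corrected library sizes) in Aim2-/- libraries and at 67.5 to 75.0 CPM in mice WT 3 and WT 4, but at 21.5 CPM in the mouse labelled WT 1. The main differences between genotypes are therefore also given without that mouse. The members called within WT were the same without it in each comparison of times. The T cell genes Cd3d, Cd3e, Cd3g, Cd4 and Trac summed to 3017 to 3270 CPM in WT and 3274 to 3447 CPM in Aim2-/- libraries at 0 h. Markers of other cells were not at 0 in any group, and several sets were higher in Aim2-/- libraries, with summed levels at 0 h of 344 to 742 CPM against 4343 to 6085 CPM for 6 B cell genes, 40.4 to 165 against 375 to 735 for 3 plasma cell genes, and 48.7 to 65.2 against 177 to 514 for 6 myeloid genes. The 3 basophil and mast cell genes gave 6.59 to 9.46 against 49.6 to 93.6 CPM, whereas the 7 erythroid genes overlapped (9.58 to 72.9 against 22.4 to 345 CPM), as did 3 NK cell genes (10.3 to 16.3 against 12.4 to 23.5 CPM) and 2 CD8 T cell genes (9.77 to 11.4 against 8.12 to 10.9 CPM). By 24 h the B cell sum was 327 to 435 CPM in WT and 711 to 1600 CPM in Aim2-/- libraries. In such bulk libraries fewer cells of a type and less RNA per cell cannot be told apart.

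Dnmt1 (ENSMUSG00000004099) lies on the minus strand of chromosome 9 of GRCm38, chr9:20907209-20959888, and Uhrf1 (ENSMUSG00000001228) on the plus strand at chr17:56303321-56323486. Dnmt3a (ENSMUSG00000020661) is at chr12:3806007-3914443 and Dnmt3b (ENSMUSG00000027478) at chr2:153649450-153687730, both on the plus strand. Tet1 (ENSMUSG00000047146, chr10:62804570-62908996), Tet2 (ENSMUSG00000040943, chr3:133463679-133545139) and Tet3 (ENSMUSG00000034832, chr6:83362373-83459084) are on minus strands. All are protein coding, and the counts cover their exons as a whole, so isoforms of a gene are not separated. Annotated genes that overlap them, such as the antisense transcripts Dnmt3aos and Dnmt3bos, had at most 6 counts in any library.

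The promoters of the pair that rose most after stimulation, Dnmt1 and Uhrf1, are shown with those of Dnmt3b, which rose in smaller steps, and Tet2, which fell. Each window runs from 250 bases before to 50 bases after a RefSeq start site on GRCm38.p6, and all 7 genes had at least 1 such window. The Dnmt1 start site shown lies 7265 bases inside the outermost annotated start of the gene, and that of Uhrf1 lies 992 bases inside. Letters searched on both strands were TTTCGCGC and TTTGGCGC, forms of the site of the E2F cell cycle factors, and CCAAT, the site of NF-Y. Matches are in capitals, and a CCAAT match on one strand can share letters with a match on the other.
Dnmt1, chr9:20952574-20952873, minus strand: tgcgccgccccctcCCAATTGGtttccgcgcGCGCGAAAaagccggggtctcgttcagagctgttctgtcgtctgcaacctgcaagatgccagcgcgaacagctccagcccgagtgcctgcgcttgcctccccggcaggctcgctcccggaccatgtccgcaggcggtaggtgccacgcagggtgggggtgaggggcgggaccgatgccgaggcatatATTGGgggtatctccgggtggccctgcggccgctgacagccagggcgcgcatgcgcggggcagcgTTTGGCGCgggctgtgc
Uhrf1, chr17:56304063-56304362, plus strand: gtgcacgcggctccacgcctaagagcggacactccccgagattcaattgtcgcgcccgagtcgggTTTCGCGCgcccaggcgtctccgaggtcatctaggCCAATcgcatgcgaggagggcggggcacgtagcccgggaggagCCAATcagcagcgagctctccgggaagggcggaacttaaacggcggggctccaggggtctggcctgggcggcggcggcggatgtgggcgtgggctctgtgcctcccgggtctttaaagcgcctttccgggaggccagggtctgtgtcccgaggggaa
Dnmt3b, chr2:153649199-153649498, plus strand: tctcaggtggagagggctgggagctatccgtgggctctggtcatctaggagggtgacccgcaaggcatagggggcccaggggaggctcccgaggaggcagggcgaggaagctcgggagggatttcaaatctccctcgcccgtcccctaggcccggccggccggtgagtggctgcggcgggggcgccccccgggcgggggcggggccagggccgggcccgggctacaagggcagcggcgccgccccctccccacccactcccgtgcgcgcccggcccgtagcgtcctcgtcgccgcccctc
Tet2, chr3:133544341-133544640, minus strand: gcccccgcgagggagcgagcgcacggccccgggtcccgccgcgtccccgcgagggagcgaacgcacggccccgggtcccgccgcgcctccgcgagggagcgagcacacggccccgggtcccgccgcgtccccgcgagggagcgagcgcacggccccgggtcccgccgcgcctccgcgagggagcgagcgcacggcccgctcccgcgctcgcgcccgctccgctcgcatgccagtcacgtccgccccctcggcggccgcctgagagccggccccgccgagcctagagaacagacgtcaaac

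Among the 7 genes, E2F letters were found in windows of Dnmt1 and Uhrf1 only. The Dnmt1 window held TTTCGCGC at position -219 from the start site on the opposite strand and TTTGGCGC at 34, with positions counted from 1 at the start site. The Uhrf1 window held TTTCGCGC at -185 and CCAAT at -150 and -107. Of 32851 mouse promoter windows of this length, 0.323% held TTTCGCGC, 0.514% held TTTGGCGC, 0.813% held either, and 37.4% held CCAAT. By gene, 251 of 27025 genes with a window (0.929%) and 5 of 10 replication genes with a window held either form. The other windows of Dnmt1 and Uhrf1 in RefSeq held neither E2F form, and CCAAT was also found in a window of Tet3.

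The same windows differed in CG pairs. The Tet2 window held 57, more than 99.8% of all windows, and the windows of Dnmt3a held 46, 47 and 18. Dnmt1 and Uhrf1 had 33 each in the windows shown, which are their windows with E2F letters. The other windows of Dnmt1 held 12 and 2, and the other window of Uhrf1 held 12. Dnmt3b had 30, Tet3 22 and Tet1 17, where the median over all windows was 7. These letters describe the reference sequence, and neither binding nor methylation was measured.

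Dnmt1, the maintenance methyltransferase, changed late. At 0 h it lay at 158, 179 and 174 CPM in mice WT 1, WT 3 and WT 4, while the 3 Aim2-/- mice (1, 2 and 4) were at 145, 181 and 155 CPM. At 3 h the values were 147, 146 and 161 CPM in WT and 136, 148 and 131 CPM in Aim2-/- cells. At 6 h they were 145, 129 and 132 CPM in WT and 144, 123 and 133 CPM in Aim2-/- cells. Through 6 h all 12 stimulated libraries of both genotypes thus stayed within or below the range at 0 h. At 24 h Dnmt1 was at 735, 934 and 808 CPM in WT, and at 401, 774 and 552 CPM in Aim2-/- cells, so that no library of 24 h overlapped any earlier one.

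Against 0 h, Dnmt1 rose 4.85-fold by 24 h in WT (log2 fold change 2.28 ± 0.16 SE, n = 3 mice, adjusted p = 5.84e-11, edgeR quasi-likelihood test) and 3.59-fold in Aim2-/- cells (1.84 ± 0.16, adjusted p = 1.53e-09). The order of its levels in WT was 24 h, 0 h, 3 h and 6 h, and among the last 3 times no neighbours passed the test. The difference of 6 h from 0 h in WT was -0.33 (adjusted p = 0.0786), and -0.33 with adjusted p = 0.0385 when each mouse was a term of the model, where the p over all alternatives lay between 0.00897 and 0.278. In Aim2-/- cells the same difference was -0.27 ± 0.15 (adjusted p = 0.162).

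Uhrf1, whose protein recruits DNMT1 to replicating DNA, had the largest change of the 7 genes at 24 h in both genotypes. It started low, at 20.5, 10.5 and 15.3 CPM in WT and at 41.1, 20.2 and 27.2 CPM in Aim2-/- cells at 0 h. The values at 3 h were 23.2, 12.0 and 13.5 CPM in WT and 30.8, 16.1 and 27.8 CPM in Aim2-/- cells, and those at 6 h were 26.5, 14.3 and 17.0 CPM and 38.0, 22.1 and 33.0 CPM. These groups overlapped at 0, 3 and 6 h within each genotype. At 24 h Uhrf1 reached 482, 548 and 482 CPM in WT and 278, 468 and 367 CPM in Aim2-/- cells, above every earlier library.

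The rise of Uhrf1 from 0 to 24 h was 32.6-fold in WT (log2 5.03 ± 0.36, adjusted p = 7.31e-11) and 12.6-fold in Aim2-/- cells (3.65 ± 0.34, adjusted p = 4.14e-09). Nearly all of it fell between 6 and 24 h, when the fold was 26.1 in WT and 11.9 in Aim2-/- cells. Neither 3 h nor 6 h differed from 0 h in the test, with log2 differences of 0.07 ± 0.33 and 0.32 ± 0.33 in WT. Its close relative Uhrf2, which also binds modified CG sites, went the other way, from 181 ± 18.7 CPM (SD, n = 3) to 74.6 ± 0.91 CPM in WT, while in Aim2-/- cells it went from 201 ± 7.94 to 78.4 ± 5.09 CPM. Per kb of the longest transcript, Uhrf2 stood at 51.2 against 4.31 CPM for Uhrf1 in WT at 0 h, and at 21.1 against 140.5 CPM at 24 h.

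**Figure D1:**
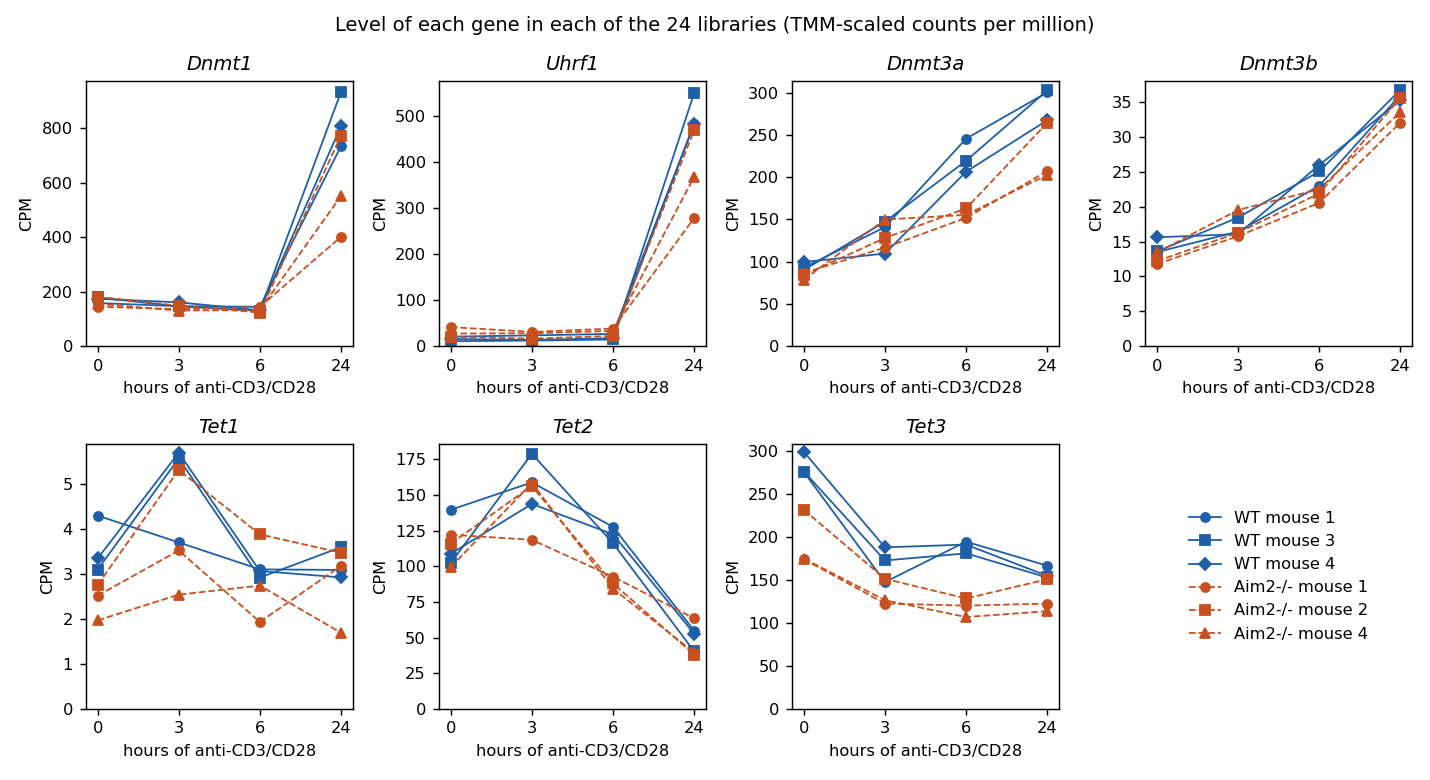
Each panel plots the CPM of a gene (y axis, from 0) against hours of stimulation (x axis, times evenly spaced) for each mouse, with WT mice as solid blue and Aim2-/- mice as dashed orange lines. Dnmt1 and Uhrf1 are flat to 6 h and high in all 6 libraries of 24 h, Dnmt3a and Dnmt3b climb at each step of the group means, and Tet2 is highest at 3 h in 5 of 6 mice.

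Dnmt3a, a de novo methyltransferase, rose early and at every step in WT. It was at 92.9, 90.3 and 99.5 CPM at 0 h, at 141, 147 and 109.6 CPM at 3 h, at 246, 219.5 and 207 CPM at 6 h, and at 300.4, 303 and 267 CPM at 24 h. No 2 of these 4 groups overlapped. In Aim2-/- cells it was at 86.6, 84.2 and 78.7 CPM at 0 h, at 117, 128 and 149.9 CPM at 3 h, at 152, 163 and 155 CPM at 6 h, and at 207, 264 and 203 CPM at 24 h. Here too no 2 of the groups overlapped, but the rise was smaller between 3 and 6 h.

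Against 0 h the log2 change of Dnmt3a in WT was 0.49 ± 0.12 at 3 h (adjusted p = 0.00232), 1.25 ± 0.12 at 6 h (1.92e-08) and 1.62 ± 0.12 at 24 h (9.26e-11). The corresponding values in Aim2-/- cells were 0.66 ± 0.12 (0.000198), 0.91 ± 0.12 (1.61e-06) and 1.43 ± 0.12 (7.55e-10). These 3 comparisons share the 0 h libraries. From 3 to 6 h the change was 0.76 ± 0.12 in WT (adjusted p = 0.000101) and 0.25 ± 0.12 in Aim2-/- cells (0.123), so that in Aim2-/- cells these neighbouring times were not told apart by the test. The call at 3 h in WT was lost without mouse WT 3 (0.36, adjusted p = 0.112), as was that of 24 against 6 h in WT (0.37 ± 0.12 with all mice, adjusted p = 0.00883, and 0.31 with adjusted p = 0.107 without that mouse). Over the alternatives these 2 adjusted p values lay between 0.000253 and 0.112 and between 0.00294 and 0.107.

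Dnmt3b, the other de novo methyltransferase, followed the same course from a lower level. Its WT values were 13.5, 13.6 and 15.6 CPM at 0 h, 16.4, 18.5 and 16.1 CPM at 3 h, 23.0, 25.1 and 26.0 CPM at 6 h, and 36.0, 36.8 and 35.3 CPM at 24 h. The Aim2-/- values were 11.8, 12.2 and 13.4 CPM, then 15.8, 16.3 and 19.5 CPM, then 20.6, 21.9 and 22.5 CPM, and at 24 h 32.1, 35.7 and 33.6 CPM. As for Dnmt3a, neighbouring times did not overlap in either genotype.

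Dnmt3b rose 2.53-fold by 24 h in WT (log2 1.34 ± 0.10, adjusted p = 1.41e-10) and 2.71-fold in Aim2-/- cells (1.44 ± 0.10, adjusted p = 7.11e-11). At 6 h the log2 changes were 0.79 ± 0.10 and 0.80 ± 0.10. At 3 h Dnmt3b was called in Aim2-/- cells (0.46 ± 0.10, adjusted p = 0.00137, lost with 0.0529 when only the libraries compared were fitted) and lay at 1.19 times its 0 h level in WT (adjusted p = 0.057), where the fit with mouse as a term gave 0.25 and an adjusted p of 0.0357, in a range from 0.00315 to 0.539 over the alternatives. The step from 3 to 6 h in Aim2-/- cells (0.33 ± 0.10, adjusted p = 0.0187) was lost in 6 alternatives, including those without mouse Aim2-/- 1 (0.31, adjusted p = 0.0837), Aim2-/- 2 (0.29, 0.148), WT 3 (0.30, 0.0711) and WT 4 (0.30, 0.0666). The p of this step lay between 0.00722 and 0.338 over all alternatives.

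Tet3, a dioxygenase that was the most abundant Tet transcript at 0 h, dropped within 3 h. Its WT values were 276, 276 and 299 CPM at 0 h, 148, 173 and 188 CPM at 3 h, 195, 181 and 191 CPM at 6 h, and 167, 153 and 155 CPM at 24 h. In Aim2-/- cells they were 174, 232 and 175 CPM at 0 h, 123, 151 and 127 CPM at 3 h, 120.2, 129 and 107 CPM at 6 h, and 123, 151 and 114 CPM at 24 h. Every stimulated library lay below every 0 h library of its genotype, whereas the groups of 3 and 6 h overlapped.

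Tet3 fell by 0.74 on the log2 scale at 3 h in WT (SE 0.12, adjusted p = 6.66e-05), by 0.59 at 6 h (0.000356) and by 0.84 at 24 h (2.65e-06). In Aim2-/- cells it fell by 0.54 (0.00196), 0.71 (5.57e-05) and 0.58 (0.000229) at these times. After 3 h no neighbouring times differed in the test, although in WT the level at 24 h was lower than at 6 h with mouse as a term (-0.26, adjusted p = 0.00704, against 0.0756 without the term and 0.00301 to 0.225 over the alternatives).

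Tet2, the dioxygenase best known as a tumour suppressor of blood cells, passed through a high point at 3 h and was lowest at 24 h. WT values were 139.7, 102 and 109 CPM at 0 h, 159, 179 and 144 CPM at 3 h, 128, 116 and 123 CPM at 6 h, and 54.9, 40.4 and 52.8 CPM at 24 h. Aim2-/- values were 122, 116 and 99.6 CPM at 0 h, 119, 156 and 158 CPM at 3 h, 92.7, 88.0 and 84.3 CPM at 6 h, and 63.5, 38.0 and 39.6 CPM at 24 h. In both genotypes every 24 h library was below all others.

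By 24 h Tet2 had fallen 2.37-fold in WT (log2 -1.24 ± 0.17, adjusted p = 1.28e-06) and 2.39-fold in Aim2-/- cells (-1.26 ± 0.17, adjusted p = 1.22e-06). The rise at 3 h in WT (0.46 ± 0.17, adjusted p = 0.0401) was lost without mouse WT 3 (0.27, adjusted p = 0.385) or WT 4 (0.45, 0.152), with p from 0.00686 to 0.385 over the alternatives. The value at 3 h in Aim2-/- cells was 0.36 ± 0.17 (adjusted p = 0.112). From 3 to 6 h Tet2 fell by 0.71 in Aim2-/- cells (SE 0.17, adjusted p = 0.00446), a call lost without mouse Aim2-/- 4 (-0.60, adjusted p = 0.0611, range 5.35e-06 to 0.0611). In WT this step was -0.39 (adjusted p = 0.0888), or -0.40 with adjusted p = 0.0414 with mouse as a term, in a range from 0.0231 to 0.368.

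Tet1, the third dioxygenase, was barely transcribed. Its counts lay between 33 and 122 in every library, which is 1.69 to 5.70 CPM. In WT it was at 4.30, 3.10 and 3.35 CPM at 0 h, 3.70, 5.57 and 5.70 CPM at 3 h, 3.10, 2.92 and 3.07 CPM at 6 h, and 3.09, 3.60 and 2.93 CPM at 24 h. Aim2-/- cells had 2.52, 2.76 and 1.97 CPM, then 3.53, 5.32 and 2.54 CPM, then 1.93, 3.88 and 2.74 CPM, and at 24 h 3.18, 3.48 and 1.69 CPM. At these counts the SE of its log2 changes from 0 h was about 0.30, and no change of Tet1 between neighbouring times or from 0 h passed the edgeR test with all mice and no mouse term. With mouse as a term Tet1 was lower at 6 than at 3 h in WT (-0.71, adjusted p = 0.0181, against 0.0841 without the term, 0.0471 without mouse Aim2-/- 2, range 0.0181 to 0.403) and higher at 3 than at 0 h in Aim2-/- cells (0.62, adjusted p = 0.0442, against 0.113, range 0.0442 to 0.37).

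**Figure D2:**
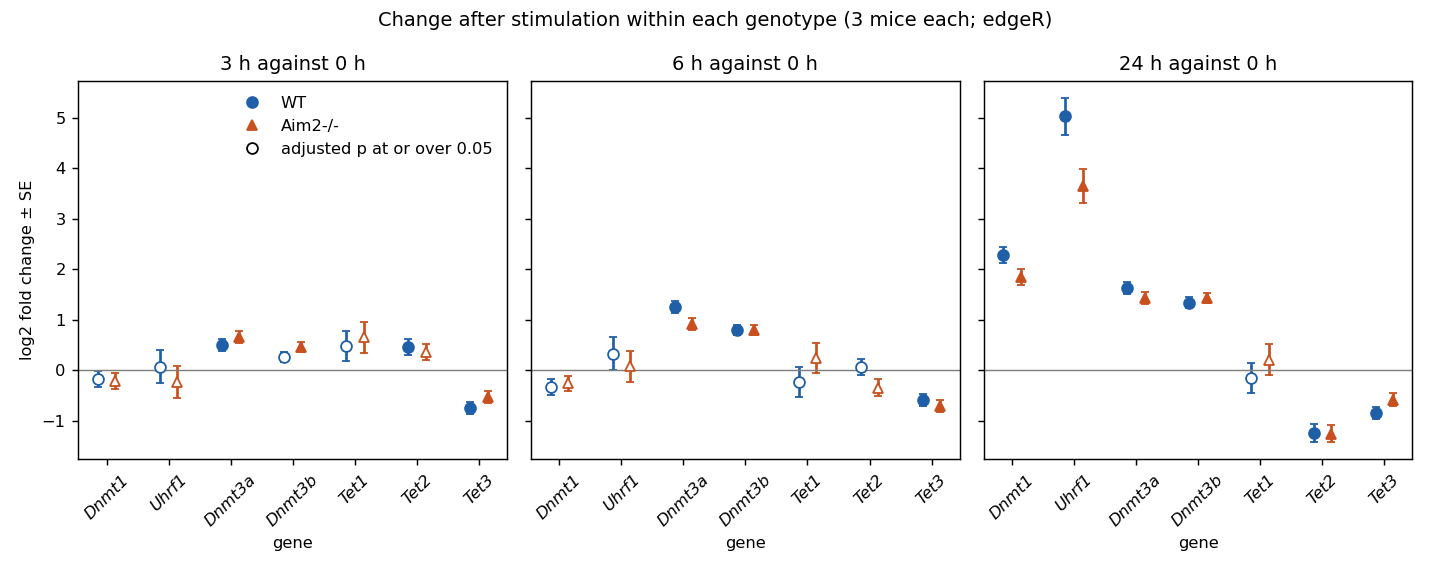
The y axis gives the log2 fold change from 0 h with its SE for each gene (x axis) at 3, 6 and 24 h, in WT (circles) and Aim2-/- cells (triangles), and open symbols did not pass an adjusted p of 0.05. At 24 h Uhrf1 stands at 5.03 in WT and 3.65 in Aim2-/- cells, the Dnmt genes lie above 0, and Tet2 and Tet3 lie below 0.

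Counted over the 7 genes, 2 were higher and 1 lower in WT at 3 h, where 32.6% of all genes tested were called (16.2% higher and 16.4% lower). At 6 h the WT counts were 2 and 1 beside 51.1% (26.4% and 24.8%), and at 24 h 4 and 2 beside 71.4% (36.6% and 34.8%). Aim2-/- cells had 2 and 1 at 3 h beside 30.7% (16.1% and 14.6%), 2 and 1 at 6 h beside 51.2% (28.5% and 22.7%), and 4 and 2 at 24 h beside 70.3% (36.8% and 33.5%). The share of members called was thus near the background of this strong stimulus at each time. All 4 genes of the writing and copying machinery were higher at 24 h in both genotypes, and both abundant Tet genes were lower. The median log2 change of the 7 at 24 h was 1.34 in WT and 1.43 in Aim2-/- cells, where that of all tested genes was -0.01 and 0.03. Between neighbouring times, 2 members rose in WT from 3 to 6 h, where 25.7% of all genes were called (14.2% higher and 11.5% lower), and 4 rose and 1 fell from 6 to 24 h beside 57.6% (29.6% and 28%). For Aim2-/- cells these counts were 1 risen and 1 fallen beside 23.3% (13.4% and 9.89%), and 4 risen and 1 fallen beside 54.3% (27.4% and 27%). Groups without overlap were likewise common among all genes, at 45.9%, 59.6% and 76.6% for 3, 6 and 24 h against 0 h in WT and 39.9%, 55.9% and 70.9% in Aim2-/- cells. For 6 against 3 h these shares were 41.2% and 32.3%, and for 24 against 6 h 68.1% and 57.2%.

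Levels of different genes were compared per kb of the longest annotated transcript. At 0 h in WT the order was Dnmt1 at 29.0 CPM per kb, Tet3 at 26.0, Tet2 at 12.7, Dnmt3a at 9.73, Uhrf1 at 4.31, Dnmt3b at 3.30 and Tet1 at 0.25. The order in Aim2-/- cells at 0 h was the same on this scale, while with the union of annotated exons as the length Uhrf1 stood above Tet2 and Dnmt3a there. In WT Dnmt1 and Tet3 had SDs of 1.83 and 1.22 CPM per kb (n = 3), so that the gap between these neighbours was close to their spread. In Aim2-/- cells at 0 h Dnmt1 (24.6 to 30.9) lay above Tet3 (16.0 to 21.3) without overlap. At 6 h Dnmt3a (23.1 ± 2.06) and Dnmt1 (23.0 ± 1.39) were level, and at 24 h Dnmt1 (140.6 ± 17.2) and Uhrf1 (140.5 ± 10.7). With the union of annotated exons as the length, Dnmt1 stayed above Tet3 in WT at 0 h (23.1 against 17.0). On that scale Dnmt1 stood at 18.3 against 13.5 for Dnmt3a in WT at 6 h, and Uhrf1 stood above Dnmt1 at 24 h in both genotypes.

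The makeup of each family per kb moved with time. Dnmt1 made up 69.0% ± 1.70 (SD, n = 3) of the summed Dnmt level in WT at 0 h, 44.4% ± 0.71 at 6 h and 78.5% ± 2.11 at 24 h. Dnmt3a had 23.2% ± 1.29, 44.5% ± 1.53 and 16.8% ± 1.76 at these times. The Aim2-/- share of Dnmt1 was 70.3% ± 2.48, 51.7% ± 2.78 and 75.2% ± 4.37. The share of Dnmt3b was highest at 6 h, at 11.1% ± 1.28 in WT and 11.4% ± 0.73 in Aim2-/- cells. These shares are descriptions of the same levels and were not tested.

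Within the Tet family the gap between Tet3 and Tet2 varied with time. The ratio of Tet3 to Tet2 per kb was 2.08 ± 0.36 at 0 h, 0.90 ± 0.18 after 3 h, 1.30 ± 0.02 after 6 h and 2.74 ± 0.39 by 24 h in WT. In Aim2-/- cells it was 1.45 ± 0.24, 0.79 ± 0.10, 1.13 ± 0.09 and 2.46 ± 0.86. The order of the pair at 3 h in WT turned with the length used and among mice. With the union of exons Tet3 was above Tet2 (10.2 against 9.52 CPM per kb), and in 1 WT mouse the ratio was 1.10 per longest transcript. For Aim2-/- cells Tet2 stayed above Tet3 at 3 h with either length. Tet1 was 1.12% of the family or less in every group mean. Among the writers, the ratio of Dnmt1 to Uhrf1 per kb went from 7.36 ± 2.87 at 0 h to 1.00 ± 0.06 at 24 h in WT, whereas Aim2-/- cells went from 3.71 ± 1.68 to 0.94 ± 0.07, and the 24 h ratios of all 6 mice lay between 0.88 and 1.04.

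**Figure D3:**
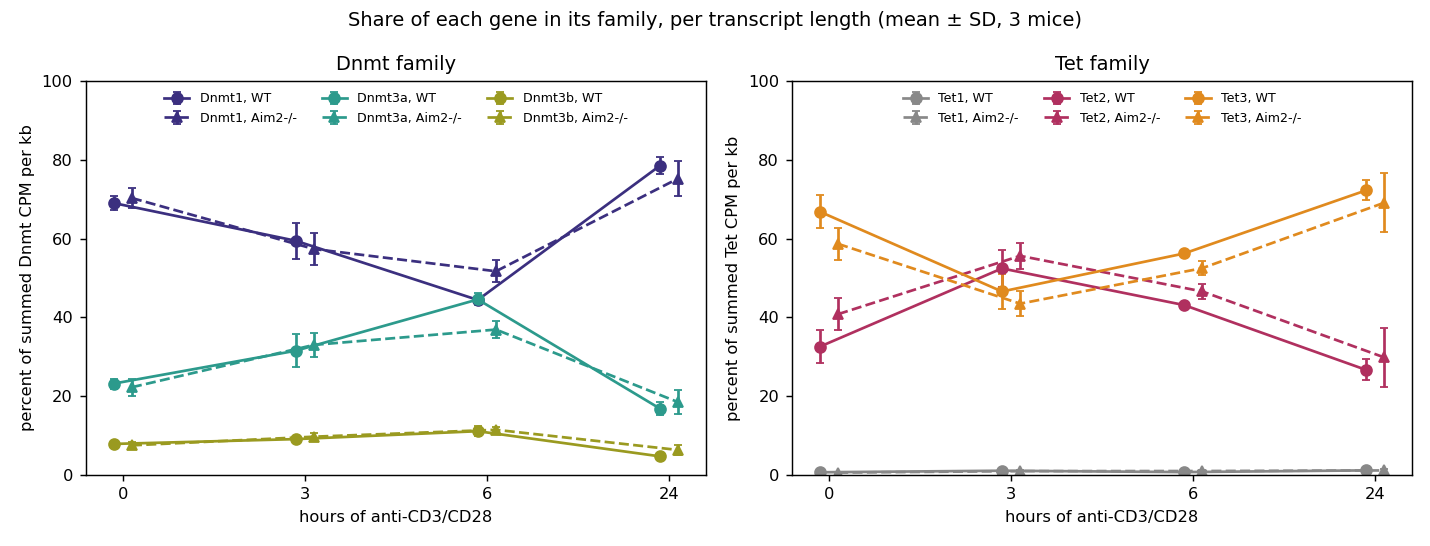
The y axis gives each gene's percent of its family's summed CPM per kb against hours of stimulation (x axis, times evenly spaced), as mean ± SD of 3 mice, with WT as circles and solid lines and Aim2-/- as triangles and dashed lines. Dnmt1 is lowest at 6 h, where Dnmt3a is highest, and Tet2 exceeds Tet3 at 3 h only, which for WT holds per longest transcript and not with the union of exons.

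Other genes of DNA methylation were read from lists of 54 genes, of which 50 were tested. Dnmt3l, Zfp57, Dppa3 and Cxxc4 had too few counts. At 24 h 31 were higher and 17 lower in WT and 31 higher and 15 lower in Aim2-/- cells, beside the 71.4% and 70.3% of all genes called. The replication genes, which include the Mcm helicase subunits, Cdc45, Rrm2 and the proliferation marker Mki67, were all higher, 12 of 12 in both genotypes. Their median log2 change was 3.42 in WT and 2.65 in Aim2-/- cells. Rrm2, a subunit of ribonucleotide reductase, rose by log2 5.10 and 4.11, Gins1 by 5.03 and 4.25, and Cdc45 by 4.51 and 3.67.

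Partners of the writers split. Of 9 tested, 5 rose and 2 fell at 24 h in each genotype. Hells, the chromatin remodeller needed for methylation of repeats, rose from 11.5 to 257 CPM in WT (log2 4.48), and its Aim2-/- means were 13.6 and 187 CPM (3.79). Its partner Cdca7 rose by log2 4.29 and 3.54, already past the test at 3 h (1.28 and 0.82), and Cdca7l by 3.16 and 2.74. Uhrf2 fell by 1.28 and 1.36, and Smchd1, a structural protein of the inactive X chromosome, by 0.99 and 1.25. Usp7 and Nsd1 did not pass the test in either genotype.

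Genes of active demethylation and base excision repair gave 8 risen and 5 fallen of 13 in each genotype at 24 h. Apex1, the abasic site endonuclease, rose by log2 2.37 and 2.11, Parp1 by 1.83 and 1.46, and Tdg, the glycosylase that removes the TET products, by 0.96 and 0.95. Gadd45g rose from 4.36 to 19.8 CPM in WT and was called from 3 h on, while its relatives fell at 24 h, Gadd45b by 2.21 and 2.36 and Gadd45a by 2.14 and 1.27. Ogt, the O-GlcNAc transferase that binds TET proteins, fell by 1.62 and 1.35.

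Of 7 listed genes, readers of methylated DNA and their relatives, 1 rose and 6 fell in WT at 24 h. In Aim2-/- cells 1 rose and 5 fell. The gene that rose was Mbd3 (log2 1.79 and 1.68), a subunit of the NuRD complex listed as a relative of the readers. Zbtb4 fell most, with group means of 173 and then 16.3 CPM in WT (-3.40). Its means in Aim2-/- cells were 149.8 and then 18.6 CPM (-3.01). Zbtb38 fell by 1.11 in WT. Among 9 genes of methyl group supply and of the metabolites that TET enzymes use or are inhibited by, 5 rose and 4 fell in WT and 5 rose and 3 fell in Aim2-/- cells. Ahcy, which clears the methyltransferase product S-adenosylhomocysteine, rose by log2 2.40 and 1.98.

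At 3 and 6 h fewer genes of these lists were called, as among all genes. In WT 10 were higher and 8 lower at 3 h (32.6% of all genes called) and 15 and 13 at 6 h (51.1%), and in Aim2-/- cells 9 and 9 (30.7%), then 11 and 12 (51.2%). Of the replication genes, Mcm2 and Mcm5 were higher in WT at 3 h (log2 0.46 and 0.49).

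The genes with the time courses most like each member were found by correlation of log2 CPM over the 24 libraries, which share 8 groups and 6 mice. For Dnmt1 these were Mcm4 (r = 0.991), Rfc1 (0.989) and Zfp280b (0.989), and for Uhrf1 they were Tyms (0.995), Fancd2 (0.995) and Cdc45 (0.994). Dnmt3a was most like Urb2 (0.983), Naa25 (0.982) and Adarb1 (0.98), and Dnmt3b most like Cyb5b (0.992), Fam136a (0.991) and Riox2 (0.989). Tet2 was most like Ogt (0.963), Fndc3a (0.962) and Kdm6b (0.958), and Tet3 most like Tcf20 (0.959), Thada (0.953) and Foxk1 (0.949). For Tet1 no gene came above 0.762, reached by Apbb1ip, with Trrap (0.757) and Cyfip2 (0.744) next. Among the members, Dnmt1 and Uhrf1 had r = 0.938, Dnmt3a and Dnmt3b 0.955, and Tet2 and Tet3 0.324.

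Between genotypes, Tet3 was lower in Aim2-/- than in WT cells at 0 h and at 6 h, and Dnmt3a at 6 h. At 0 h the 3 Aim2-/- libraries had 174 to 232 CPM of Tet3 and the WT libraries 276 to 299 CPM, with no overlap and a log2 difference of -0.55 ± 0.12 (adjusted p = 0.017). It was the only member called at 0 h, where 5.23% of all genes were called (3.24% higher and 1.99% lower in Aim2-/- cells) and 28.5% did not overlap between the genotypes. The difference was -0.57 (adjusted p = 0.0245) without the mouse labelled WT 1, but was lost without mouse Aim2-/- 1 (-0.48, adjusted p = 0.121), Aim2-/- 4 (-0.48, 0.0812), WT 3 (-0.61, 0.116) or WT 4 (-0.54, 0.0979), with p from 1.73e-05 to 0.121 over the alternatives. B cell, plasma cell, myeloid and basophil markers differed between these libraries as given above, and their part in the result was not tested.

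At 6 h 2 of 7 members were lower in Aim2-/- cells and none higher, where 15.8% of all genes were called (8.78% higher and 7.01% lower) and 35.6% did not overlap. Tet3 had 107 to 129 CPM against 181 to 195 CPM in WT (-0.67 ± 0.12, adjusted p = 0.00484), and the call held in every alternative (p from 2.81e-06 to 0.044). Dnmt3a had 152 to 163 CPM against 207 to 246 CPM (-0.51 ± 0.12, adjusted p = 0.0113). Without the mouse labelled WT 1 the values were -0.65 (adjusted p = 0.0118) for Tet3 and -0.45 (0.0431) for Dnmt3a. The call of Dnmt3a was lost without mouse Aim2-/- 1 (-0.49, adjusted p = 0.061) or WT 3 (-0.57, 0.0542), in a range from 0.000231 to 0.061. Tet2 at 6 h lay at 84.3 to 92.7 CPM in Aim2-/- and 116 to 128 CPM in WT libraries, again with no overlap, but did not pass (-0.47 ± 0.17, adjusted p = 0.0594, and -0.44 with 0.123 without the mouse labelled WT 1, range 0.00197 to 0.149). The B cell sum was 3408 to 5286 CPM in Aim2-/- libraries at 6 h against 275 to 694 CPM in WT, and its part in these differences was not tested.

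No member was called between genotypes at 3 h or 24 h by edgeR, where 0.294% (0.254% higher and 0.0392% lower) and 0.666% of all genes (0.659% higher and 0.00653% lower) were. An unadjusted p under 0.05 was met by 1 member at 3 h (Tet3) and by 3 at 24 h (Dnmt1, Dnmt3a and Tet3). limma-voom also called 0 members at both times, and DESeq2 called 0 at 3 h and 2 at 24 h (Dnmt1 and Dnmt3a). Of all 15325 genes, DESeq2 called 307 at 3 h and 787 at 24 h, and limma-voom 63 and 5. At 24 h the Dnmt1 difference was -0.52 ± 0.15 (adjusted p = 0.0935) and -0.60 (0.112) without the mouse labelled WT 1. It was -0.79 (adjusted p = 0.00133) without mouse Aim2-/- 2 and -0.32 (0.545) without mouse Aim2-/- 1, in a range from 0.00133 to 0.579. Dnmt3b was close between the genotypes at each time, with log2 differences between -0.19 and 0.02 and SEs of 0.10, and Tet2 at 24 h differed by -0.07 ± 0.17. Without the mouse labelled WT 1 the Dnmt3b differences lay between -0.24 and -0.01, and that of Tet2 at 24 h was 0.01.

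**Figure D4:**
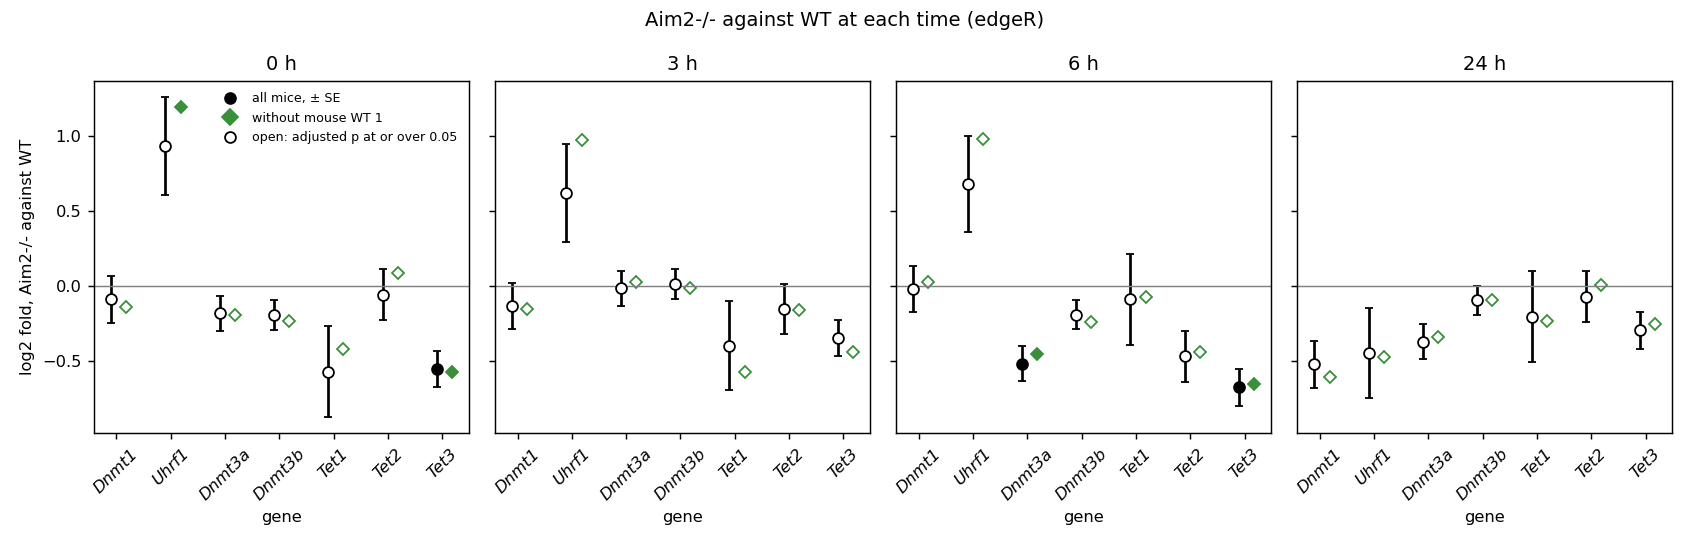
The y axis gives the log2 difference of Aim2-/- from WT cells for each gene (x axis) at 0, 3, 6 and 24 h, as black circles with SE for all mice and green diamonds without the mouse labelled WT 1, and open symbols did not pass an adjusted p of 0.05. Filled circles are Tet3 at 0 h (-0.55) and Tet3 (-0.67) and Dnmt3a (-0.51) at 6 h, and Uhrf1 lies 0.62 or more above 0 at 0, 3 and 6 h.

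Uhrf1 was the member with higher group means in Aim2-/- cells at each of 0, 3 and 6 h, although libraries of the genotypes overlapped at each. The difference at 0 h was 0.93 ± 0.32 (adjusted p = 0.0878), and it passed without the mouse labelled WT 1 (1.19, adjusted p = 0.0419) and without Aim2-/- mouse 2 (1.14, 0.019), in a range from 0.000931 to 0.387. At 3 and 6 h it was 0.62 ± 0.32 and 0.68 ± 0.32, and 0.97 and 0.98 without the mouse labelled WT 1, none past the threshold. At 6 h it passed without Aim2-/- mouse 2 (0.87, adjusted p = 0.037) and without a filter on low counts (0.60, 0.0278), in a range from 0.0278 to 0.399. The level differed among mice of a genotype in the same order at 0, 3 and 6 h. Mouse WT 1 was above WT 4 and WT 3, and Aim2-/- mouse 1 above mice 4 and 2.

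The proliferation marker Mki67 had the same order of mice at 0 h, with 99.8, 48.4 and 37.4 CPM in mice WT 1, WT 4 and WT 3 and 142, 117 and 82.1 CPM in Aim2-/- mice 1, 4 and 2. The 12 genes of the replication list, which include Mki67 itself, summed to 888, 771 and 723 CPM in these WT mice. In these Aim2-/- mice they summed to 1052, 1015 and 915 CPM. Plasma cell markers at 0 h were 165, 40.4 and 52.8 CPM in mice WT 1, WT 4 and WT 3 and 735, 703 and 375 CPM in Aim2-/- mice 1, 4 and 2, and erythroid markers were 345, 208 and 22.4 CPM in these Aim2-/- mice. The B cell, myeloid, basophil and mast cell, NK and CD8 T cell sums fell in the same order of Aim2-/- mice. For B cell genes they were 6085, 4908 and 4343 CPM. In WT neither these sums nor those of plasma cell and erythroid markers fell in the order WT 1, WT 4 and WT 3. The B cell sums were 742, 344 and 561 CPM and the erythroid sums 15.9, 9.58 and 72.9 CPM in these WT mice. The part of such cells in the Uhrf1 level at 0 h was not tested.

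At 24 h the order of Uhrf1 and of the replication sum among Aim2-/- mice was turned. Mouse 2 had the highest Uhrf1 (468 CPM), Dnmt1 (774 CPM) and replication sum (6143 CPM), followed by mouse 4 (367, 552 and 5185 CPM) and mouse 1 (278, 401 and 4335 CPM). For Dnmt1 this was already the order at 0 h, with 181, 155 and 145 CPM in Aim2-/- mice 2, 4 and 1. The WT replication sums were 6202, 7069 and 6199 CPM in mice WT 1, WT 3 and WT 4. B cell markers at 24 h were 711 CPM in Aim2-/- mouse 2, 851 CPM in mouse 4 and 1600 CPM in mouse 1, and myeloid markers 30.1, 51.0 and 207 CPM. Their part in the differences among these mice was not tested.

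**Figure D5:**
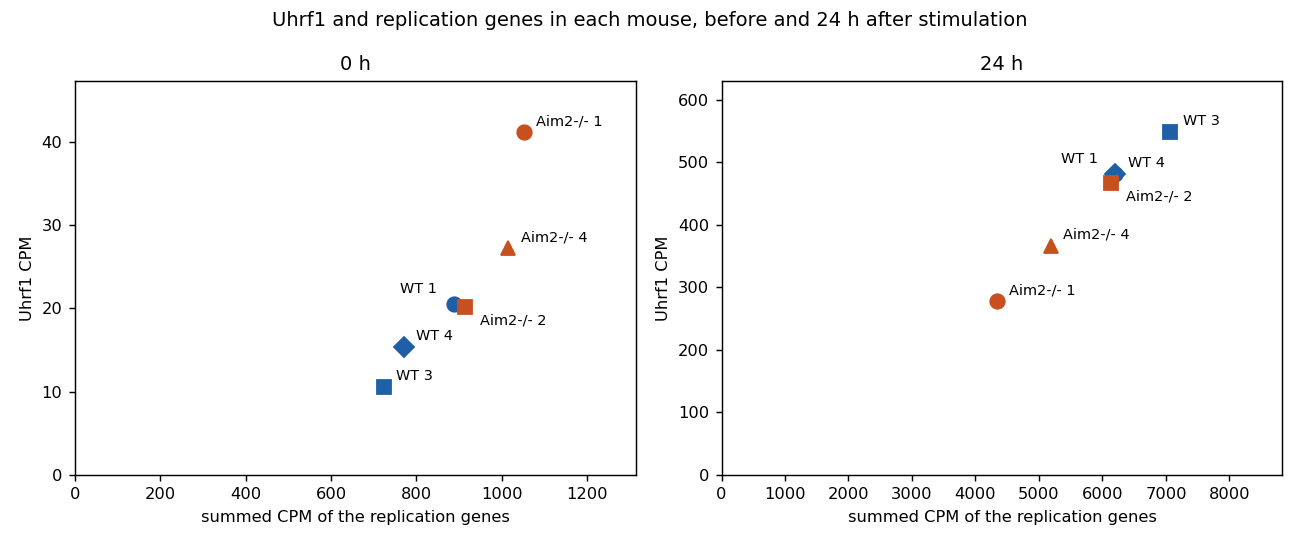
Each point is a mouse, with the summed CPM of 12 replication genes on the x axis and the CPM of Uhrf1 on the y axis, at 0 h and at 24 h, WT in blue and Aim2-/- in orange. At 0 h Aim2-/- mouse 1 is highest on both axes (1052 and 41.1 CPM), and at 24 h it is lowest on both (4335 and 278 CPM).

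Whether the response to stimulation differed between the genotypes was tested for each member as the difference of the 2 log2 changes. No member passed at 3, 6 or 24 h by edgeR, where 0%, 0.0261% and 0% of all genes were called, and at 24 h 1 member, Uhrf1, had an unadjusted p under 0.05. limma-voom and DESeq2 also called 0 members at each time. Of all 15325 genes, limma-voom called 0, 2 and 2 and DESeq2 0, 304 and 185 at 3, 6 and 24 h. Among the members the largest difference was that of Uhrf1 at 24 h, at -1.38 ± 0.44 (adjusted p = 0.219), the rise being the smaller in Aim2-/- cells. With mouse as a term it was -1.36 with an adjusted p of 0.0401, without Aim2-/- mouse 2 it was -1.79 (0.0451), without Aim2-/- mouse 1 -0.89 (0.836) and without the mouse labelled WT 1 -1.67 (0.122), and over all alternatives the p lay between 0.00202 and 0.971. For Dnmt1 at 24 h the difference was -0.43 ± 0.22 (adjusted p = 0.442), and for Dnmt3a at 6 h -0.34 ± 0.16 (0.389).

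Of the 50 other genes, 0 were called between genotypes at 0, 3 and 24 h by edgeR, with 13, 3 and 19 unadjusted p values under 0.05. DESeq2 called 3, 1 and 8 of them at these times and limma-voom 0 at each. Of all 15325 genes, DESeq2 called 1557, 307 and 787 at these times, and limma-voom 802, 63 and 5. At 6 h 2 of the 50 were higher and 5 lower in Aim2-/- cells by edgeR, beside 15.8% of all genes. Rrm2 (log2 1.12) and Idh2 (0.36) were higher, and Mat2a (-0.68), which makes the methyl donor S-adenosylmethionine, Smchd1 (-0.66), Lig3 (-0.57), Smug1 (-0.49) and Nsd1 (-0.36) were lower. Without the mouse labelled WT 1 the number called was 5. All 7 calls were lost when any 1 of the mice Aim2-/- 1, Aim2-/- 4, WT 3 or WT 4 was left out.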

How the data were processed

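Stranded mRNA libraries were prepared per the labels from splenic CD4+ T cells of 6 mice at 4 times. Raw, unnormalized counts per Ensembl gene were deposited, and the submitters' processing notes name STAR, GRCm38, DESeq2 and edgeR. Versions and the strand setting of the counting are not given in the sources used here. Symbols and positions came from GENCODE M21 (54409 of 54446 identifiers matched), and promoter sequences from RefSeq on GRCm38.p6.

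Counts were fitted with edgeR 4.0.16 (R 4.3.3) using TMM factors (0.928 to 1.09), the filterByExpr filter (minimum count 10) and the two-sided quasi-likelihood test over all 24 libraries with 8 group means. Benjamini-Hochberg adjustment ran over the 15325 genes tested in each comparison, and an adjusted p under 0.05 was called. SEs were derived from the fold change and its F statistic. The common dispersion was 0.0346. The test was checked on counts simulated independently for each library, a check that does not cover the correlation among libraries of a mouse. CPM used TMM-scaled library sizes, CPM per kb the longest annotated transcript, and likeness log2 CPM with a prior count of 2. At these library totals 3 counts are the floor taken for detection, for counting error only.

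Mouse numbers in the labels tie 4 libraries to each mouse, which pairs the time points. Deviations from the group means correlated with r from 0.139 to 0.567 in the 36 pairs of libraries of a mouse and from -0.432 to 0.0742 in the 72 pairs of different mice of a genotype. The study's general methods give limma-voom on RSEM estimates and name no block, so limma-voom and the block were alternatives to the count test. The others were RLE factors or library totals, DESeq2 1.42.0, limma 3.58.1 for voom, no filter, a mean of at least 1 CPM, only the libraries compared, mouse number as a term, each mouse left out, and the union of exons as the length.

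Named genes were the 7 members, Aim2, up to 3 genes per direction and list with the largest called changes, those in counts of 5 or fewer, and for each member the 3 genes of highest correlation, without clone-named or predicted genes. Tdg, Mki67 and the antisense Dnmt3aos and Dnmt3bos were named after their values were seen. The members, lists, motifs and tests were chosen with earlier results of these data known. Some genes that the rule names are not reported here. Protein sequences were not used here.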

Additional observations from a re-analysis of the deposited data

How the results depend on the processing

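Over the alternatives, 1635 of 1764 values of 119 member differences kept direction and side of the threshold, 63 newly passed it, 19 no longer did, and 47 changed sign, all of them differences near 0 that were not called. With mouse as a term, the replicate block that pairs libraries of a mouse, 4 members instead of 2 were called between 3 and 6 h in WT and 1 instead of 0 for the response difference at 24 h. Tet1 was then also called from 3 to 24 h in WT, and besides these and the calls given with their results no other changed. With mouse number as a term 4 members were called in WT from 3 to 6 h, and between genotypes 3, 1 and 3 at 0, 3 and 24 h. Pathway genes were 13, 6, 20 and 15 at 0, 3, 6 and 24 h against 0, 0, 7 and 0. This term ties WT and Aim2-/- mice of the same number, which are different animals. Of all 15325 genes it called 3613, 2324, 5516 and 3235 between genotypes, against 802, 45, 2421 and 102. Mouse as a random block in limma-voom gave 2 pathway genes at 0 h, beside 1264 of all genes. For the response difference at 24 h, mouse as a term called 424 of all genes.

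DESeq2 called 4 members in WT from 3 to 6 h, and 2 between genotypes at 0 h and 2 at 24 h. Pathway genes it called between genotypes were 3, 1 and 8 at 0, 3 and 24 h, beside 1557, 307 and 787 of all 15325 genes. Without a filter there was 1 member in Aim2-/- cells from 3 to 6 h and 1 for the response at 24 h. Between genotypes there were 2, 4 and 2 members at 0, 6 and 24 h. Pathway genes then numbered 4, 1, 11 and 8 at 0, 3, 6 and 24 h, beside 1499, 775, 2942 and 962 of all 31367 genes. With only the libraries compared there was 1 member in Aim2-/- cells from 3 to 6 h and 0 between genotypes at 0 h. Pathway genes then numbered 1 and 3 between genotypes at 0 and 6 h, beside 317 of 13408 and 979 of 13653 genes. Library totals and a mean of 1 CPM each gave 1 pathway gene at 0 h. Library totals moved the median of all genes from 0.01 to 0.12 in WT at 3 h, where 3357 genes were higher and 1815 lower against 2476 and 2516, and the Aim2-/- split at 3 h was 3455 and 1529 against 2461 and 2237. From 6 to 24 h the splits were 4002 and 4934 against 4541 and 4290 in WT, and 3709 and 4725 against 4198 and 4131 in Aim2-/- cells.

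Leaving out each mouse, members called ranged from 1 to 3 in WT at 3 h (1 without WT 3), from 1 to 2 in Aim2-/- cells from 3 to 6 h, from 0 to 2, 0 to 1, 1 to 3 and 0 to 3 between genotypes at 0, 3, 6 and 24 h, and from 0 to 1 for the response at 24 h. Pathway genes ranged from 10 to 18 in Aim2-/- cells at 3 h (10 without Aim2-/- 4) and from 0 to 11, 0 to 2, 0 to 17 and 0 to 15 between genotypes, where the highest counts came without Aim2-/- 2. Without Aim2-/- 2, 3 members were called between genotypes at 24 h (Dnmt1, Dnmt3a and Tet3), and without the mouse labelled WT 1, 2 at 0 h (Uhrf1 and Tet3). Of all 15631 genes tested without Aim2-/- 2, 2139, 1143, 4020 and 2702 were called between genotypes at 0, 3, 6 and 24 h. Without the mouse labelled WT 1 the number was 904 of 15656 at 0 h.

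The sign changed without a mouse within WT for Uhrf1 at 3 h (-0.02 to 0.15), Tet2 at 6 h (-0.03 to 0.18, and -0.01 without WT 4), Tet1 at 24 h (-0.40 to 0.02) and Tet1 from 6 to 24 h (-0.06 to 0.13, and -0.02 with library totals). Within Aim2-/- cells it changed for Uhrf1 at 6 h (-0.03 to 0.21), Dnmt1 from 3 to 6 h (-0.12 to 0.05) and Tet1 from 6 to 24 h (-0.36 to 0.20, with 0.06). Between genotypes it changed for Tet2 at 0 h (-0.18 to 0.09, with 0.03), Dnmt3a at 3 h (-0.14 to 0.07, with 0.01, 0.03 and 0.04, and 0.01 with library totals), Dnmt3b at 3 h (-0.08 to 0.08, with -0.01 and -0.03), Dnmt1 at 6 h (-0.09 to 0.03, and 0.03 with library totals), Tet1 at 6 h (-0.38 to 0.13) and 24 h (-0.39 to 0.05), and Tet2 at 24 h (-0.35 to 0.06, with 0.04 and 0.01). For the response difference it changed for Dnmt1 (-0.10 to 0.01), Tet1 (-0.15 to 0.36, with -0.04) and Tet2 (-0.25 to 0.09) at 3 h. At 6 h it did for Dnmt1 (-0.06 to 0.22, and -0.03 with only the libraries compared) and Dnmt3b (-0.05 to 0.05, with -0.02 and -0.01). For Dnmt3b it was also -0.01 with RLE factors and DESeq2, -0.04 without a filter, -0.03 with a mean of 1 CPM and -0.09 with only the libraries compared. For Tet2 at 24 h the range was -0.23 to 0.14, with 0.01 and 0.10, and 0.03 with library totals. The cause of these shifts was not tested.

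Tet1 rests on 33 to 122 counts a library, and Uhrf1 and Tet1 had the largest SEs of the 7. Each group has 3 mice, 1 WT mouse has Aim2 levels like those of Aim2-/- mice, and B cell, plasma cell, myeloid and basophil markers are higher in Aim2-/- libraries at 0 h, which cannot be told apart from genotype here. RNA levels give no measure of the proteins or of methylation.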
